A study of Rattus norvegicus with 19 samples.

Results

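The genes described here encode the receptors through which monoamines, acetylcholine and cannabinoids act on hippocampal cells. They were chosen by symbol: serotonin (*Htr*), dopamine (*Drd*), muscarinic (*Chrm*) and nicotinic (*Chrn*) acetylcholine, adrenergic (*Adra*, *Adrb*), histamine (*Hrh*) and cannabinoid (*Cnr*) receptor genes with a numbered symbol. The rule found 52 of the 32623 genes in the files, and 46 of these had at least 10 reads in total over all libraries and were tested among 19975 genes. Because a letter must be followed by a digit in the nicotinic symbols, *Chrnd*, *Chrne* and *Chrng* fell outside the rule.

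RNA was sequenced from the hippocampus of 19 male rats, 1 library per animal, of the outbred Sprague Dawley background. CRISPR/Cas9 had been used to delete or to duplicate the *Sult1a1* to *Spn* segment of rat chromosome 1, which is conserved with human 16p11.2, and littermates of 4 genotypes were compared. The wt group (n = 6) had 2 copies of the segment, Del/+ (n = 4) had 1 copy, Dup/+ (n = 5) had 3 copies, and Del/Dup (n = 4), with the deleted and the duplicated chromosome together, had 2 copies. The labels give no age, and the study describes the hippocampi as adult. The rearrangements were inherited through the germline and so were not limited to a cell type.

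For wt replicate 5 one label field gave wt and another gave Dup/+, and the library was counted as wt. *Mapk3*, a kinase gene inside the segment, was used to check the labels. Its level, in reads of the gene scaled to the depth of the library (CPM), lay between 88.5 and 97.9 in wt and between 81.6 and 98.3 in Del/Dup, below these in Del/+ (between 41.2 and 60.8) and above them in Dup/+ (between 128 and 154). The wt range includes replicate 5, whose *Mapk3* thus lay with wt and below every Dup/+ library. *Kctd13*, also inside the segment, ranged from 78.9 to 86.3 CPM in wt, with replicate 5, and from 110 to 123 CPM in Dup/+. Reads in genes totalled 16191192 to 38760645 per library. Del/+ replicates 1 to 3 and all Del/Dup libraries stood apart from the other 12 libraries by their multi-mapped reads, those that align to several places, which made up 57.8% to 76.3% against 40.1% to 50.5%. Every Del/Dup library lay above every wt library, so in Del/Dup against wt this share and the genotype cannot be told apart. Markers of hippocampal neurons were present in every library: the dentate gyrus list summed to 134 to 324 CPM and the list of CA1 and CA3 pyramidal cells to 1079 to 1690 CPM. *Tdo2* of the former stood at or near 0 and *Fibcd1* of the latter had under 10 reads. In bulk tissue, fewer cells of a type and less RNA per cell cannot be told apart.

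Serotonin, noradrenaline, dopamine, histamine and acetylcholine reach the hippocampus through axons of cells that lie in the brainstem, the hypothalamus and the basal forebrain, so the hippocampus itself mostly expresses the receptors and few of the enzymes that make these transmitters. Most of the receptors couple to G proteins: Gq raises calcium, Gs raises cyclic AMP and Gi lowers it. The nicotinic receptors and the serotonin receptor of the *Htr3* genes are ion channels built from subunits. Cannabinoid receptors sense lipids that neurons make on demand, and the CB1 receptor restrains transmitter release from axon terminals.

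No receptor gene was called between genotypes at an adjusted p under 0.05 with the quasi-likelihood F test of edgeR. The count was 0 of 46 in Del/+ against wt, where 0.496% of all genes tested were called, 0 in Dup/+ (background 0.180%), 0 in Del/Dup (0.0401%), 0 in Del/+ against Dup/+ (0.571%) and 0 for any difference among the 4 genotypes (0.581%). DESeq2, which gives no adjusted p to genes that its own filters on low counts and outlying counts leave out, called 2 of 19 receptor genes with an adjusted p in Del/+ against wt (*Adra1d* and *Chrm3*; 6.57% of all genes with one), 0 of 44 in Dup/+ (0.441%), 0 of 44 in Del/Dup (1.10%), 1 of 41 in Del/+ against Dup/+ (*Chrm2*; 1.69%) and 1 of 37 for any difference (*Adra1d*; 4.78%). At an unadjusted p under 0.05 by edgeR, 9 receptor genes (19.6%) stood out in Del/+ beside 15.7% of all genes, 4 (8.70%) in Dup/+ beside 8.03%, 10 (21.7%) in Del/Dup beside 14.0%, 6 (13.0%) in Del/+ against Dup/+ beside 11.5%, and 8 (17.4%) for any difference beside 16.0%. Higher and lower values were 3 and 6 in Del/+ (background 8.07% and 7.58%), 1 and 3 in Dup/+ (4.01% and 4.03%), 3 and 7 in Del/Dup (7.70% and 6.33%) and 3 and 3 between Del/+ and Dup/+ (5.99% and 5.53%). The animals of 2 groups did not overlap for 0 receptor genes in Del/+ against wt (background 3.95%), 0 in Dup/+ (1.0%), 1 in Del/Dup (2.33%) and 2 between Del/+ and Dup/+ (4.57%). The comparisons share groups of animals and are not independent of each other. The p-values measure the spread between animals.

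The fold changes were small for most receptor genes. The 95% interval of the log2 fold change lay within 1.5-fold in either direction for 28 of the 46 (60.9%) in Del/+ against wt, 31 (67.4%) in Dup/+, 28 (60.9%) in Del/Dup and 29 (63.0%) in Del/+ against Dup/+. Among all genes tested the shares were 62.1%, 64.5%, 61.4% and 61.2%. The median log2 fold change of the 46 genes was -0.08 in Del/+, -0.002 in Dup/+ and -0.01 in Del/Dup, beside 0.005, -0.002 and 0.01 over all genes tested.

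**Figure D1:**
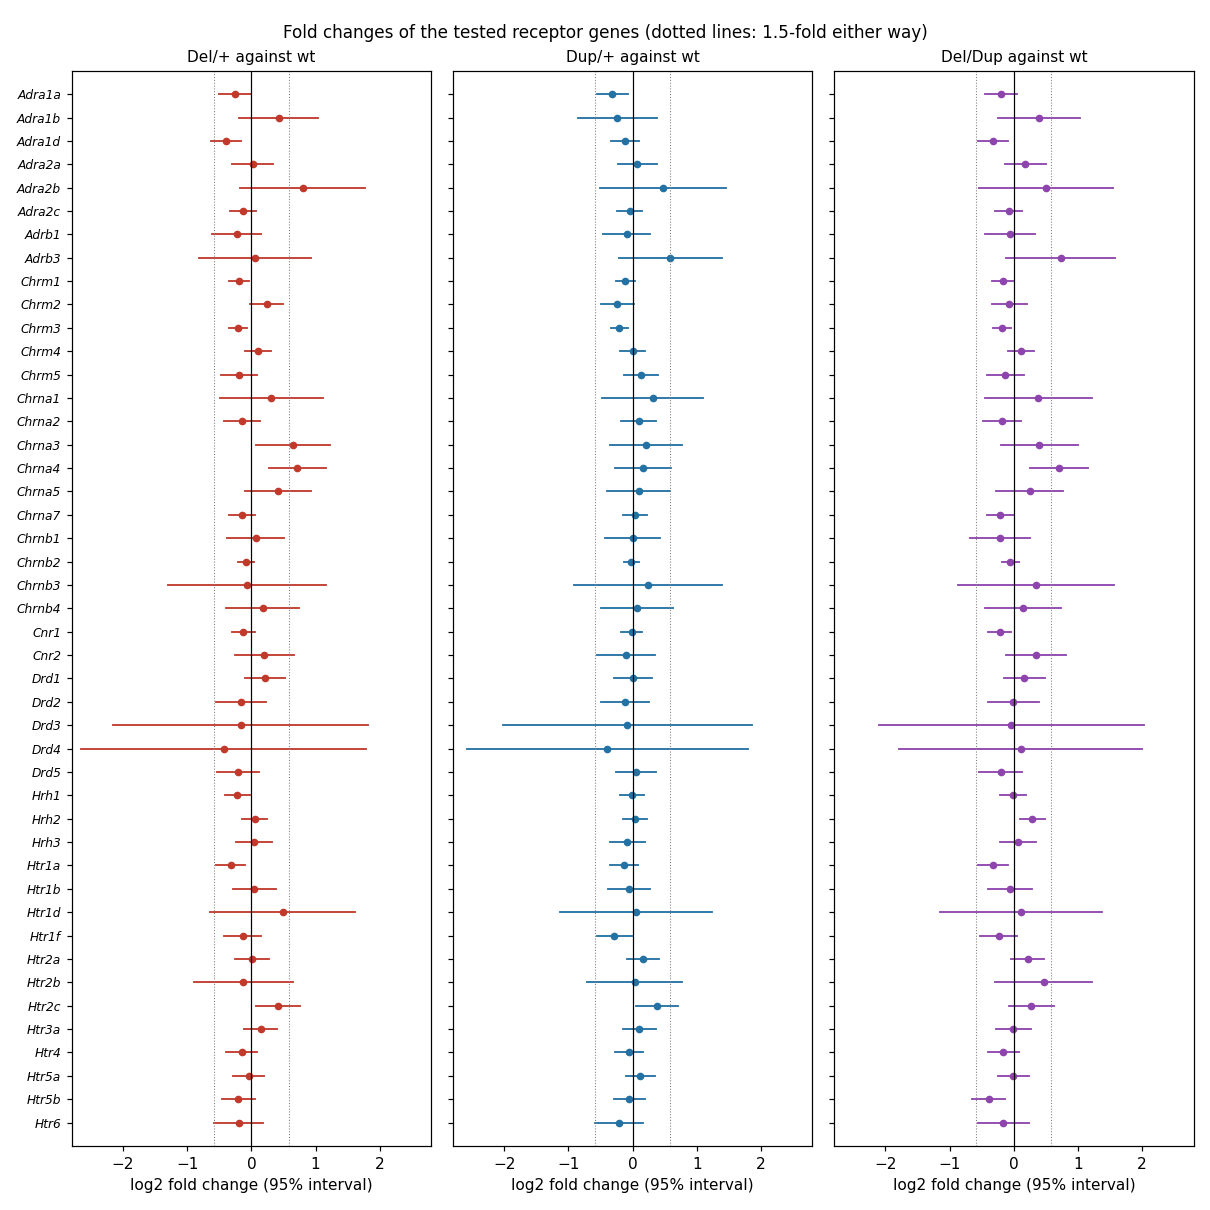
Log2 fold changes against wt of 45 of the 46 receptor genes tested, in Del/+, Dup/+ and Del/Dup, with points for the fitted value, lines for the 95% interval and dotted lines at 1.5-fold either way. Between 28 and 31 intervals per comparison lie inside the dotted lines, and the widest belong to *Drd3* and *Drd4*, which had 28 and 27 reads in all.

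The receptor genes with the smallest p in Del/+ against wt were *Adra1d*, which encodes the alpha-1D adrenergic receptor, a Gq-coupled receptor for noradrenaline, and *Chrna4*, whose product forms with that of *Chrnb2* a common high-affinity nicotinic receptor of the brain. *Adra1d* ranged from 77.8 to 99.0 CPM in wt, with a median of 85.2. It measured 69.2, 57.9, 78.8 and 55.3 CPM in Del/+ replicates 1 to 4. Del/+ replicates 1, 2 and 4 lay below every wt animal, and replicate 3 lay within the wt range. In Dup/+ it measured 83.3, 83.5, 76.0, 81.5 and 74.2 CPM, and in Del/Dup 49.8, 88.9, 66.6 and 69.2 CPM in replicates 2 to 5. Dup/+ overlapped the wt range, and so did Del/Dup, through replicate 3. The log2 fold change was -0.40 (SE 0.11; adjusted p = 0.104) in Del/+, -0.11 (SE 0.11; adjusted p = 0.844) in Dup/+ and -0.33 (SE 0.11; adjusted p = 0.224) in Del/Dup. Between Del/+ and Dup/+ the difference was -0.29 (SE 0.12; adjusted p = 0.343). Del/+ against wt passed the threshold in edgeR without Del/+ replicate 3 (-0.50, adjusted p = 0.0453), without Del/Dup replicate 2 (-0.40, adjusted p = 0.0384) or without Del/Dup replicate 3 (-0.40, adjusted p = 0.0373), and in DESeq2 (-0.40, adjusted p = 0.0200). Over 31 alternatives the adjusted p ran from 0.0200 to 1.0, and it was 0.00641 in a subset of libraries with 1 Del/+ animal. With summed thalamus markers as a covariate the sign turned, to 0.02 in Del/+ against wt and 0.07 against Dup/+. In Del/Dup the log2 fold change was -0.21 (adjusted p = 0.670) without replicate 2 and -0.48 (adjusted p = 0.0383) without replicate 3.

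*Chrna4* ranged from 13.6 to 25.3 CPM in wt, with a median of 15.6. It measured 20.6, 40.7, 25.0 and 31.1 CPM in Del/+ and 40.8, 19.3, 33.9 and 21.6 CPM in Del/Dup, in the order of the replicate numbers. Del/+ replicates 2 and 4 and Del/Dup replicates 2 and 4 lay above every wt animal, and the other Del/+ and Del/Dup animals lay inside the wt range. Dup/+ measured 19.3, 17.9, 24.8, 16.7 and 21.5 CPM, all inside it. The log2 fold change was 0.72 (SE 0.21; adjusted p = 0.113) in Del/+, 0.16 (SE 0.21; adjusted p = 0.896) in Dup/+ and 0.70 (SE 0.22; adjusted p = 0.186) in Del/Dup. Del/+ and Dup/+ differed by 0.55 (SE 0.22; adjusted p = 0.336), and by 0.36 (adjusted p = 0.701) without Del/+ replicate 2. With the thalamus covariate the sign turned here too, to -0.04 in Del/+ against wt and -0.11 against Dup/+. In the GRCr8 gene table *Chrna4* overlaps *Col20a1*, and since the strand setting of the counting is not given in the sources used here, reads of such a pair cannot be told apart. Of the 46 genes tested, 16 overlap another gene's span in that table.

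The promoters of *Adra1d* and *Chrna4*, the receptor genes with the smallest p in Del/+, neither of them called there by edgeR, are shown as a description. They come from RefSeq on GRCr8, a later assembly than that of the counts, and run from 250 bases before to 50 bases after the annotated start: *Adra1d* at chr3:139262282-139262581 and *Chrna4* at chr3:188534477-188534776, both on the minus strand. Capitals mark GC boxes (GGGCGG, or CCGCCC on the other strand).
Adra1d: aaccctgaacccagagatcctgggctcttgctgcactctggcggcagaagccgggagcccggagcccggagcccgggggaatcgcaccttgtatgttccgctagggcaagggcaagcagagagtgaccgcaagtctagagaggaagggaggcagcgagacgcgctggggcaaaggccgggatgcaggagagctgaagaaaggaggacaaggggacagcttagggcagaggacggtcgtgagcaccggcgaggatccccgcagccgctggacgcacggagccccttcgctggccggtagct
Chrna4: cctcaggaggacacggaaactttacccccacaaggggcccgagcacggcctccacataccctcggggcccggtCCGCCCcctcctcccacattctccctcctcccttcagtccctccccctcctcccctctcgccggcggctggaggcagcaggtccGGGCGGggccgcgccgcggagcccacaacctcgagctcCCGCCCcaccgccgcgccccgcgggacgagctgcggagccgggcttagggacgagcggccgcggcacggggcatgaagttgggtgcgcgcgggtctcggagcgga
The *Adra1d* window had 65.7% G and C and 0 GC boxes, and that of *Chrna4* had 74.7% and 3. Of 33469 promoters of this length, 33.1% held a GC box, as did 22 of the 41 windows (53.7%) of the 39 receptor genes matched by symbol. TGACG, the core of the cyclic AMP response element (CGTCA on the other strand), was in 21.2% of all promoters and in 8 of the 41 (19.5%). A match describes these letters and no site, and a link between them and the direction of a value was not tested.

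Among the other adrenergic receptor genes, *Adra1a*, also coupled to Gq, ranged from 8.73 to 14.0 CPM in wt with a median of 10.9. It measured 8.54, 8.72, 7.25, 11.3 and 8.22 CPM in Dup/+, where all but replicate 4 lay below the wt range (log2 fold change -0.31, SE 0.11; adjusted p = 0.487). The highest wt value was that of replicate 5, whose *Mapk3* lay with wt and below every Dup/+ library. With this library counted as Dup/+ all the same, the log2 fold change was -0.09 (adjusted p = 0.923). The values were -0.26 (adjusted p = 0.288) in Del/+ and -0.20 (adjusted p = 0.475) in Del/Dup. *Adra1b*, the third alpha-1 gene, had the widest spread within genotypes of the 37 receptor genes with at least 10 reads in every library. It measured 2.45, 3.30, 2.90 and 2.21 CPM in Del/+ and 1.53, 1.83, 2.08, 1.35 and 1.70 CPM in Dup/+. These groups did not overlap, and the log2 difference was 0.66 (SE 0.32; adjusted p = 0.417). The library with conflicting labels, wt replicate 5, was at 4.26 CPM, above every Del/+ animal. Counted as Dup/+ it would make the groups overlap, but its *Mapk3* lay with wt and below every Dup/+ library. The 3 alpha-2 genes, which encode the Gi-coupled receptors that noradrenergic axons also use as autoreceptors, had log2 fold changes against wt from -0.13 to 0.80, the extremes being *Adra2c* and *Adra2b* in Del/+, the latter with 202 reads in all. Of the beta receptor genes, coupled to Gs, *Adrb1* had log2 fold changes of -0.23, -0.09 and -0.06 in Del/+, Dup/+ and Del/Dup against wt and *Adrb3*, with 209 reads in all, of 0.05, 0.59 and 0.73. The 95% Wald intervals of both genes held 0 in each, while the F test gave *Adrb3* in Del/Dup an unadjusted p of 0.0467 (adjusted p = 0.350), and the 2 measures parted in the same way for *Adra1b* between Del/+ and Dup/+ (interval from -0.005 to 1.32; unadjusted p = 0.0441).

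Of the 5 muscarinic genes, *Chrm1*, *Chrm3* and *Chrm5* encode Gq-coupled and *Chrm2* and *Chrm4* Gi-coupled receptors. *Chrm3* ranged from 82.1 to 102 CPM in wt (median 89.1), and measured 72.5, 80.1, 76.5 and 87.5 CPM in Del/+, 86.2, 76.4, 71.9, 87.3 and 73.9 in Dup/+ and 77.3, 79.3, 79.7 and 85.3 in Del/Dup. Each carrier group had 1 or 2 animals inside the wt range and the rest below it. The log2 fold change was -0.21 (SE 0.07; adjusted p = 0.143) in Del/+, -0.21 (SE 0.06; adjusted p = 0.370) in Dup/+ and -0.18 (SE 0.07; adjusted p = 0.245) in Del/Dup. The 3 comparisons share the wt animals. DESeq2 gave -0.21 (adjusted p = 0.0497) in Del/+, which passed its threshold, and over the 32 alternatives the adjusted p in Del/+ ran from 0.0497 to 1.0. *Chrm1*, known from pyramidal cells, ranged from 108 to 142 CPM in wt, and the Del/+ (105 to 114), Dup/+ (109 to 125) and Del/Dup animals (92.0 to 129) overlapped this range. Its log2 fold changes were -0.19, -0.11 and -0.18, with intervals that ended at -0.03, 0.04 and -0.01 (adjusted p = 0.227, 0.732 and 0.327).

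*Chrm2* had the smallest p among the receptor genes between Del/+ and Dup/+. It measured 11.2, 15.9, 11.5 and 15.4 CPM in Del/+ and 10.1, 8.48, 10.5, 8.30 and 11.2 CPM in Dup/+, with 9.77 to 12.4 CPM in wt (median 11.6) and 14.0, 8.67, 9.61 and 11.4 CPM in Del/Dup. The Del/+ and Dup/+ ranges met without overlap, at 11.23 CPM in Del/+ replicate 1 and in Dup/+ replicate 5, and the wt range lay across both. The log2 difference between Del/+ and Dup/+ was 0.47 (SE 0.13; adjusted p = 0.127), and DESeq2 called it (0.47, adjusted p = 0.0392). Over the 32 alternatives the adjusted p ran from 0.0392 to 0.995. Against wt the values were 0.24 (adjusted p = 0.364) in Del/+ and -0.24 (adjusted p = 0.637) in Dup/+. *Chrm5*, the other muscarinic gene named in that comparison, measured 11.5, 8.90, 10.5 and 7.96 CPM in Del/+ and 14.8, 10.5, 11.2, 11.8 and 12.7 CPM in Dup/+, which overlapped (log2 difference -0.32, SE 0.14; adjusted p = 0.377). The *Chrm5* locus overlaps *Aven* in GRCr8. *Chrm4* had log2 fold changes of 0.10, 0.0004 and 0.11 against wt.

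The nicotinic genes fell into 10 tested and 3 with under 10 reads: *Chrna6* with 7, *Chrna9* with 4 and *Chrna10* with 9 in all libraries together. *Chrna3*, *Chrna5* and *Chrnb4*, subunit genes that lie side by side in the genome and are known for the medial habenula and autonomic ganglia, were at 0.65 (SE 0.28), 0.41 (SE 0.25) and 0.17 (SE 0.27) on the log2 scale in Del/+ against wt (adjusted p = 0.232, 0.432 and 0.786). *Chrna3* measured 2.11, 3.38, 1.74 and 3.29 CPM in Del/+ and 1.12 to 2.57 CPM in wt (median 1.59), and Del/+ replicates 2 and 4 were again the animals above the wt range. *Chrna7*, the subunit of the calcium-permeable alpha-7 receptor of interneurons and pyramidal cells, was in the opposite order: 59.6, 41.1, 54.9 and 42.2 CPM in Del/+ and 38.8, 55.6, 44.7 and 50.4 CPM in Del/Dup, against 48.1 to 60.0 CPM in wt. Its log2 fold change was -0.15 (SE 0.10; adjusted p = 0.492) in Del/+, 0.04 (SE 0.09; adjusted p = 0.959) in Dup/+ and -0.21 (SE 0.10; adjusted p = 0.339) in Del/Dup. *Chrnb2*, the partner subunit of *Chrna4*, had the narrowest interval of the nicotinic genes: from -0.21 up to 0.05 in Del/+, from -0.14 up to 0.10 in Dup/+ and from -0.18 up to 0.08 in Del/Dup. The other nicotinic genes, *Chrna1*, *Chrna2*, *Chrnb1* and *Chrnb3*, had adjusted p from 0.519 to 1.0 in the comparisons.

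The largest family was that of serotonin, with 14 genes of which 12 were tested. *Htr7* had 0 of the 525404492 reads, which allows up to 0.00571 CPM over the pooled libraries (counting error alone), and *Htr3b* had 6. *Htr7* encodes a Gs-coupled receptor known from hippocampus, and why no read was assigned to it was not tested. *Htr1a*, the Gi-coupled receptor gene of hippocampal pyramidal and granule cells, ranged from 43.4 to 53.6 CPM in wt (median 45.7), and measured 46.7, 30.8, 42.6 and 31.8 CPM in Del/+, 48.4, 44.1, 38.7, 44.2 and 40.4 in Dup/+ and 30.9, 44.1, 36.0 and 41.2 in Del/Dup. The lowest values again belonged to Del/+ replicates 2 and 4 and Del/Dup replicates 2 and 4, and each carrier group overlapped wt. The log2 fold change was -0.32 (SE 0.11) in Del/+ (adjusted p = 0.157) and -0.32 (SE 0.11) in Del/Dup (adjusted p = 0.229), beside -0.14 (SE 0.10; adjusted p = 0.778) in Dup/+.

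*Htr2c*, a Gq-coupled receptor gene with its highest known expression in the choroid plexus, was at 50.4 to 73.2 CPM in wt (median 60.8), at 92.1, 71.6, 109 and 58.0 CPM in Del/+, at 70.1, 78.1, 112, 65.2 and 81.1 in Dup/+ and at 91.7, 58.8, 86.7 and 63.0 in Del/Dup. The highest animals were Del/+ replicate 3 and Dup/+ replicate 3, and each group overlapped wt. The log2 fold change was 0.41 (SE 0.17; adjusted p = 0.223) in Del/+, 0.38 (SE 0.16; adjusted p = 0.559) in Dup/+ and 0.27 (SE 0.17; adjusted p = 0.479) in Del/Dup. Without Del/+ replicate 3 the Del/+ value was 0.25, and without Dup/+ replicate 3 the Dup/+ value was 0.24, and the Del/+ value was -0.30 with the thalamus covariate. The *Htr2c* locus also holds microRNA genes and *Snora35* in GRCr8. *Htr5b*, a receptor gene that is intact in rodents, measured 11.2, 16.1, 12.3 and 17.4 CPM in Del/Dup against 16.3 to 24.0 in wt (median 18.1). Del/Dup replicate 5 was inside the wt range and the other 3 below it, replicate 3 narrowly (-0.39, SE 0.13; adjusted p = 0.197). *Htr1f*, another Gi-coupled receptor gene, measured 2.68, 2.70, 2.97, 2.65 and 2.57 CPM in Dup/+ and 2.58 to 3.85 CPM in wt (median 3.29), and every Dup/+ animal but replicate 5, just below it, lay inside the wt range (log2 fold change -0.28, SE 0.13; adjusted p = 0.598). For the other 8 tested serotonin genes the log2 fold changes against wt ran from -0.21 (*Htr6*, Dup/+) to 0.49 (*Htr1d*, Del/+, 96 reads in all), and none of their intervals excluded 0. These are *Htr1b*, *Htr1d*, *Htr2a*, *Htr2b*, *Htr3a*, *Htr4*, *Htr5a* and *Htr6*.

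The dopamine receptor genes gave no value with an interval that excluded 0. *Drd1* and *Drd5*, which encode Gs-coupled receptors, ranged over all animals from 4.61 to 9.86 CPM and from 1.64 to 3.46 CPM, and *Drd2*, a Gi-coupled one, from 1.42 to 2.77 CPM. Their log2 fold changes against wt lay between -0.21 and 0.21. *Drd3* and *Drd4* had 28 and 27 reads in all, and their intervals spanned from -2.65 to 2.03 against wt, so that a difference was not detectable at this depth.

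The histamine receptor genes were 3 tested and *Hrh4* with 8 reads. *Hrh2*, which encodes a Gs-coupled receptor, was the receptor gene whose Del/Dup and wt animals did not overlap: 5.92, 5.80, 6.73 and 6.11 CPM in Del/Dup against 4.49 to 5.34 CPM in wt (median 5.09). The log2 fold change was 0.29 (SE 0.09; adjusted p = 0.201), and from 0.21 to 0.38 over the 31 alternatives, with adjusted p from 0.116 to 0.642. Del/+ (4.80, 6.30, 4.64 and 5.16 CPM) and Dup/+ (5.16, 5.19, 4.81, 5.76 and 4.90 CPM) overlapped wt, with values of 0.05 and 0.04. *Hrh1*, coupled to Gq, measured 7.09, 8.24, 7.06 and 8.10 CPM in Del/+, 8.996, 8.83, 9.15, 7.49 and 9.88 in Dup/+ and 7.76 to 9.77 in wt (median 9.05). Both pairs of groups overlapped, and the log2 difference was -0.22 (SE 0.10; adjusted p = 0.264) against wt and -0.22 (SE 0.10; adjusted p = 0.405) against Dup/+, the latter 0.04 with thalamus markers as a covariate. *Hrh3*, the Gi-coupled autoreceptor gene of histamine neurons, which is also present on other axons, lay between -0.08 and 0.06 against wt.

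Of the cannabinoid receptor genes, *Cnr1* (CB1) was at 453 to 567 CPM in wt (median 518), 547, 403, 525 and 409 CPM in Del/+, 491 to 531 CPM in Dup/+ and 372, 480, 436 and 481 CPM in Del/Dup. Del/+ replicates 2 and 4 and Del/Dup replicates 2 and 4 lay below every wt animal. Its log2 fold change was -0.13 (SE 0.09; adjusted p = 0.506) in Del/+, -0.02 (SE 0.08; adjusted p = 0.979) in Dup/+ and -0.22 (SE 0.09; adjusted p = 0.266) in Del/Dup, and *Cnr2*, a gene of immune cells with 539 reads in all, gave 0.20, -0.10 and 0.35.

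**Figure D2:**
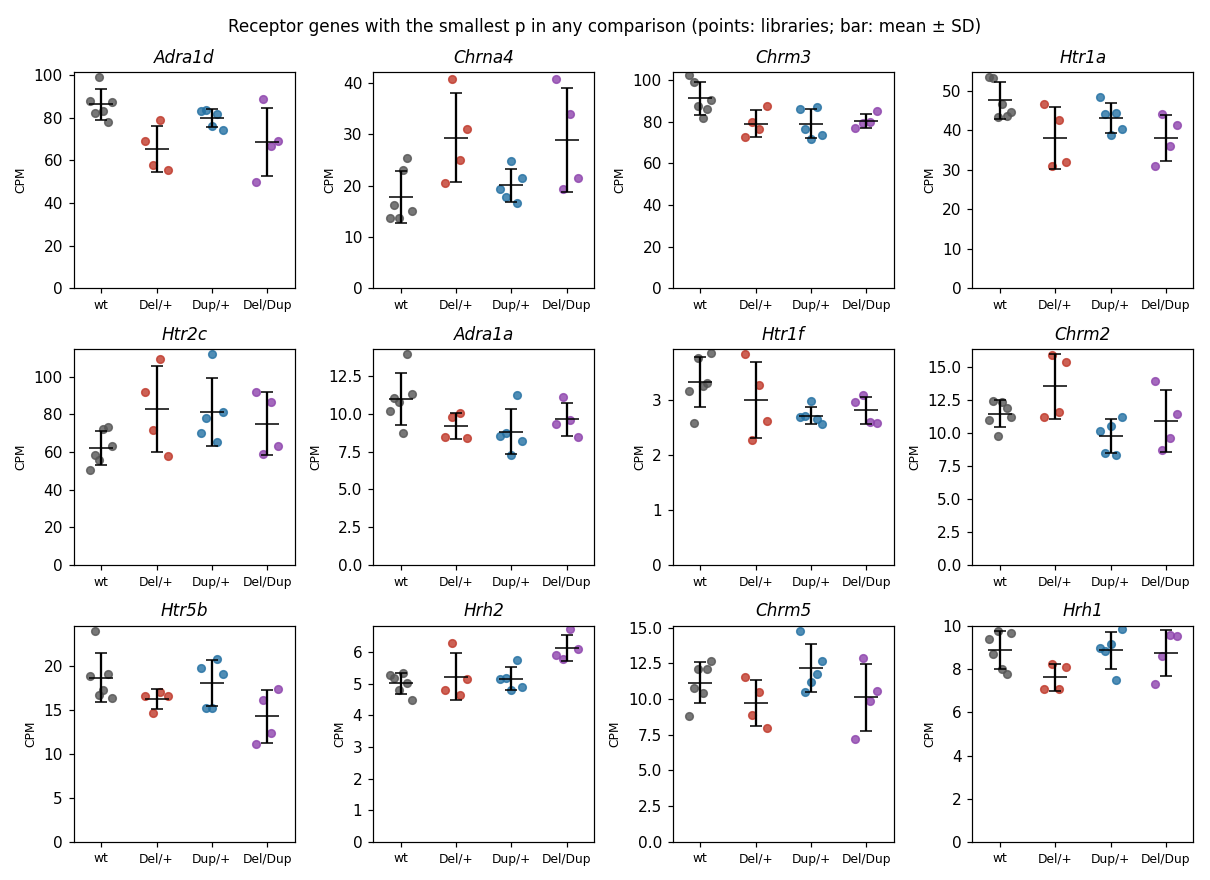
CPM of the 12 receptor genes named by rank of p, in each animal by genotype, with bars for the mean and SD of each group. In *Chrna4* the 2 highest Del/+ and the 2 highest Del/Dup animals reach 31.1 to 40.8 CPM, above every wt animal, and in *Hrh2* the Del/Dup animals (5.80 to 6.73 CPM) lie above the wt animals (4.49 to 5.34 CPM).

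The same animals recurred across some of these genes. Del/+ replicates 2 and 4 and Del/Dup replicates 2 and 4 were the highest of their groups in *Chrna4* and *Chrna3* and the lowest in *Adra1d*, *Htr1a*, *Cnr1*, *Chrna7*, *Chrm1* and *Chrm5*. This was seen after the values and is a description, and how many of the tested genes share the order was not counted. Other named genes did not share it. In *Htr2c* these replicates were the lowest of Del/+ and the highest of Del/Dup. In *Chrm3* replicates 2 and 4 were the highest of Del/+, and in *Chrm2* Del/Dup replicate 4 was not among the highest of its group. The receptor genes also varied more within genotypes than genes in general: for the 37 of them with at least 10 reads in every library, the SD of log2 CPM within genotypes had a median of 0.218 (0.102 for *Chrnb2* to 0.512 for *Adra1b*), beside 0.122 over all 13861 such genes. This is not adjusted for read number.

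Markers of neighbouring tissue also differed between libraries. The 6 thalamus markers summed to between 60.4 and 73.2 CPM in Del/+, above the wt (33.8 to 44.7), Dup/+ (35.9 to 45.2) and Del/Dup animals (34.8 to 54.7), with no overlap. Of the list, 0 were called in Del/+ against wt (median log2 fold change 0.62; 4 of 6 at an unadjusted p under 0.05) and 1 between Del/+ and Dup/+ (*Prkcd*, a protein kinase C gene, 1.32; adjusted p = 0.0360), where 4 of 6 also had an unadjusted p under 0.05. The thalamic *Slc17a6*, the vesicular glutamate transporter gene of subcortical neurons, was highest in Del/+ replicates 4 and 2 (40.9 and 33.4 CPM), the Del/+ animals with the highest *Chrna4*, while the sum of the list was highest in replicate 3 (73.2 CPM), where *Chrna4* was at 25.0 CPM. *Prkcd* was lowest of Del/+ in replicate 4 (7.48 CPM), inside the wt range (6.31 to 9.92 CPM). In Del/Dup *Slc17a6* was at 27.5 and 16.3 CPM in replicates 2 and 4, where *Chrna4* was high, and at 15.9 and 26.8 CPM in replicates 3 and 5, where it was not. The 4 dentate gyrus markers summed to between 246 and 324 CPM in wt and 231 and 308 CPM in Dup/+, to between 180 and 237 CPM in Del/+, below every wt animal and, but for replicate 4, below every Dup/+ animal, and to between 134 and 322 CPM in Del/Dup. Their lowest sums were 134 CPM in Del/Dup replicate 2 and 180 CPM in Del/+ replicate 2, which were among the lowest in *Adra1d* and *Htr1a*, while Del/+ replicate 4, also low in both (55.3 and 31.8 CPM), had the highest dentate gyrus sum of Del/+ (237 CPM). Of this list 0 genes were called, and 2 of 4 had an unadjusted p under 0.05 in Del/+ and 0 of 4 in Dup/+ and in Del/Dup. The 7 striatal markers summed to between 79.2 and 98.3 CPM in every library but Del/Dup replicate 2 (128.5 CPM), with 0 called in any comparison by edgeR (3, 0, 2, 1 and 3 at an unadjusted p under 0.05, in Del/+, Dup/+ and Del/Dup against wt, Del/+ against Dup/+ and for any difference). Of these markers *Isl1* and *Six3* stood at 0 in every wt library and at most at 0.264 and 0.158 CPM elsewhere. Of all genes, 15.7% had an unadjusted p under 0.05 in Del/+, 8.03% in Dup/+ and 14.0% in Del/Dup against wt. The shares were 11.5% between Del/+ and Dup/+ and 16.0% for any difference.

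With the summed thalamus markers as a covariate of the fit, the log2 fold change in Del/+ against wt was 0.02 for *Adra1d*, -0.04 for *Chrna4* and -0.30 for *Htr2c*, each of the opposite sign to the fit without it, and 2 in place of 9 receptor genes (4.35%) had an unadjusted p under 0.05, beside 4.41% in place of 15.7% of all genes. With the dentate gyrus markers as a covariate the count was 4 in Del/+ (8.70%, beside 9.48% of all genes) and 5 in place of 10 in Del/Dup (10.9%, beside 7.45% of all genes). Both covariates were chosen after the values were seen, and the thalamus sum differs between Del/+ and wt in every animal, so that this covariate and the genotype cannot be told apart in Del/+. In the 12 libraries with a low share of multi-mapped reads, 1 of them Del/+ (replicate 4), *Adra1d* was at -0.63 (adjusted p = 0.00641) and *Htr1a* at -0.57 (adjusted p = 0.0406) against wt, *Adra1d* at -0.52 (adjusted p = 0.0328) and *Chrm2* at 0.67 (adjusted p = 0.0464) against Dup/+, and *Htr2c* at -0.09 (adjusted p = 0.901) against wt. Of all genes in these libraries 1.35% were called against wt and 0.819% against Dup/+. There the lone Del/+ animal is assumed to vary like the other groups.

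Choroid plexus markers varied by library over a wider range. The 11 tested, of 12 listed, summed to between 97.2 and 159 CPM in wt, and reached 1723 CPM in Del/+, 622 CPM in Dup/+ and 1636 CPM in Del/Dup, and none was called in any comparison (medians of 3.14, 1.43 and 3.43 against wt; 11, 2 and 11 at an unadjusted p under 0.05). *Ttr*, the transthyretin gene of that tissue, ran from 0.913 CPM in wt replicate 5 to 1128 CPM in Del/+ replicate 3. *Otx2* had under 10 reads. *Htr2c* was at 109 CPM in Del/+ replicate 3, where *Ttr* was highest, and at 112 CPM in Dup/+ replicate 3, where *Ttr* was at 6.78 CPM. Markers of oligodendrocytes had a median of 0.35 in Del/+ against wt (0 called; 4 of 4 at an unadjusted p under 0.05). They summed to 5221, 6878, 5396 and 7912 CPM in Del/+ and 6149, 5134, 5617 and 6312 CPM in Del/Dup, against 4360 to 5733 CPM in wt, so that Del/+ replicates 2 and 4, which stood apart in *Chrna4*, *Chrna3*, *Htr1a* and *Cnr1*, lay above every wt animal, as did Del/Dup replicates 2 and 5. In Del/+ the markers of interneurons, microglia, astrocytes and pyramidal cells had medians of 0.03, -0.12, -0.13 and -0.10, with 0 called and 3 of 8, 2 of 5, 2 of 4 and 2 of 5 at an unadjusted p under 0.05. In Del/Dup the pyramidal markers had a median of -0.23 (3 of 5 at an unadjusted p under 0.05, all lower) and the oligodendrocyte markers of 0.22 (3 of 4, all higher), and interneuron, microglia and astrocyte markers medians of -0.04, -0.05 and -0.12 (3 of 8, 1 of 5 and 0 of 4), with 0 called. In Dup/+ the medians of these lists lay between -0.11 and 0.12, with 0 called and 0 to 2 genes a list at an unadjusted p under 0.05. Beside the counts of these lists and of the choroid plexus list, 15.7% of all genes passed in Del/+, 8.03% in Dup/+ and 14.0% in Del/Dup. The part of these tissues and cells in the receptor values was not tested beyond the covariate fits.

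**Figure D3:**
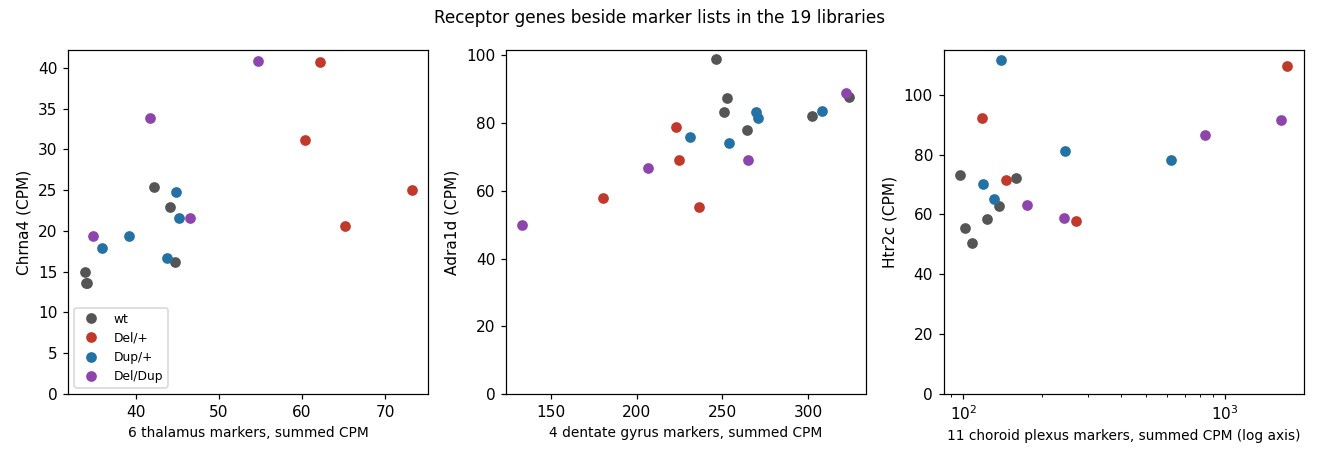
*Chrna4*, *Adra1d* and *Htr2c* (CPM, vertical axes) beside the summed CPM of 6 thalamus, 4 dentate gyrus and 11 choroid plexus markers (horizontal axes, the last on a log scale), 1 point per library coloured by genotype. The 4 Del/+ libraries lie at 60.4 to 73.2 CPM of thalamus markers, to the right of all others, and the Del/Dup library with the fewest dentate gyrus markers (134 CPM) has the lowest *Adra1d* (49.8 CPM).

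Genes that act before and after the receptors were read from lists of the same pathways. Of 33 genes that make, carry or clear these transmitters, 30 were tested and 0 were called in any of the 5 comparisons by edgeR (5, 3, 4, 2 and 4 at an unadjusted p under 0.05, in Del/+, Dup/+ and Del/Dup against wt, Del/+ against Dup/+ and for any difference). As shares of the list these were 16.7%, 10.0%, 13.3%, 6.67% and 13.3%. Beside them stood 15.7%, 8.03%, 14.0%, 11.5% and 16.0% of all genes. The smallest p belonged to *Th*, the rate-limiting enzyme of catecholamine synthesis (0.84, SE 0.40; adjusted p = 0.251 in Del/+), *Mgll*, which degrades an endocannabinoid (-0.18, SE 0.06; adjusted p = 0.424 in Dup/+), *Slc22a3*, a low-affinity monoamine transporter (1.38, SE 0.50; adjusted p = 0.197 in Del/Dup), and *Napepld*, an enzyme of anandamide synthesis (0.16, SE 0.07; adjusted p = 0.335 between Del/+ and Dup/+). *Faah* and *Slc6a2* were among the genes with under 10 reads.

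Of 47 listed genes of G protein coupling, 48 identifiers were tested, and 1 gene was called. *Adcy8*, a calcium-stimulated adenylyl cyclase, measured 29.6, 38.5, 31.2 and 32.2 CPM in Del/+ against 19.7 to 29.5 CPM in wt, while Dup/+ spanned 22.1 to 24.7 and Del/Dup 23.0 to 28.4. The Del/+ animals lay above all others. It rose in Del/+ against wt (log2 fold change 0.49, SE 0.10; adjusted p = 0.0186) and was higher in Del/+ than in Dup/+ (0.49, SE 0.10; adjusted p = 0.0242), and passed for any difference (adjusted p = 0.0338). At an unadjusted p under 0.05 the list held 14 of 48 in Del/+ (29.2%, beside 15.7% of all genes), 3 in Dup/+ (6.25%, beside 8.03%), 14 in Del/Dup (29.2%, beside 14.0%), 12 in Del/+ against Dup/+ (25.0%, beside 11.5%) and 16 for any difference (33.3%, beside 16.0%). Of these genes 5 were higher in Del/+, 0 in Dup/+, 4 in Del/Dup and 6 in Del/+ against Dup/+, and the others lower. The median log2 fold change of the list was -0.03 in Del/+ and -0.04 in Del/Dup. In Dup/+ and Del/Dup the list held 0 called genes, the smallest p being those of *Gna14*, a G protein of the Gq class (-0.43; adjusted p = 0.334), and *Prkar2b*, a regulatory subunit of protein kinase A (0.33; adjusted p = 0.151). The Del/+ libraries with the high *Adcy8* are also those with the high sum of thalamus markers, and the part of these in the *Adcy8* value was not tested.

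**Figure D4:**
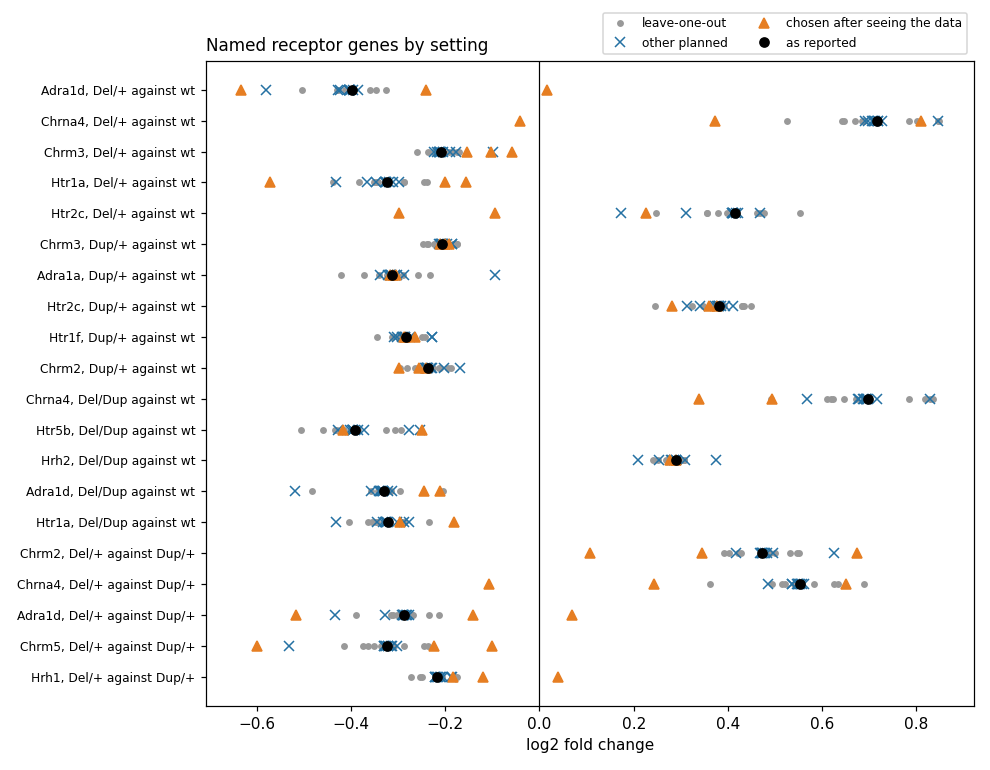
Log2 fold changes of the receptor genes named in the 4 pairwise comparisons, as reported (black), with 1 library left out (grey), under other settings planned at the outset (blue) and under settings chosen after seeing the data (orange). Values on the far side of 0 from the black point occur among the orange points, for *Adra1d*, *Chrna4*, *Htr2c* and *Hrh1* in comparisons of Del/+.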

How the data were processed

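Per the labels, stranded libraries came from a total RNA kit with rRNA removal, while another field names polyA RNA. The authors demultiplexed with bcl2fastq 2.17.1.14, aligned reads with Hisat2 to Rno6 (Ensembl annotation) and assigned them to genes with HTSeq-count, and deposited raw counts for each gene without normalization, in 1 file per library. Whether the counting used the strand is not given in the sources used here. Reads without a gene (6.94% to 16.1%), ambiguous reads (0.142% to 0.334%) and multi-mapped reads (40.1% to 76.3%) stayed out of totals and tests. Here, genes with at least 10 reads in total were tested with edgeR 4.0.16 (quasi-likelihood F test, R 4.3.3, TMM scaling, 19 libraries in 1 fit, a mean per genotype, no covariate), with Benjamini-Hochberg adjustment over all 19975 genes and a threshold of 0.05. Log2 fold changes used a prior count of 2, and CPM is per scaled library. The SE is a Wald SE and intervals are 95%. The steps were tested on simulated data. Pairs of libraries within a group differed by a chi-square per degree of freedom of 3.60 to 59.9, so no library was counted as a copy. DESeq2 1.42.0, other scalings and filters, covariates, a replicate block and leaving out each library were alternatives. The genes named are, per comparison, the 5 receptor genes with the smallest p, and from other lists those called or with the smallest p, besides *Ttr*. Other genes given with values were picked after these were seen. The receptor genes and the lists of pathway and marker genes were chosen with earlier results of these data known. Levels were not compared between genes, since no transcript lengths were used. Values of some genes are not reported here.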

Additional observations from a re-analysis of the deposited data

Results flagged for a closer look

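Among the 148 groups of libraries tested (37 receptor genes with at least 10 reads in every library, 4 genotypes), 7 held 1 library far from the others of its group by Dixon's ratio, where chance gives about 1 in 20. In wt, *Htr5b* was at 23.98 CPM in replicate 2 beside 16.3 to 19.1 in the others, and *Adra1b* was at 4.259 CPM in replicate 5, the library with conflicting labels, beside 0.811 to 1.93. In Del/+, *Htr1b* was at 17.79 CPM in replicate 4 beside 15.5 to 15.9. In Dup/+, *Adra2a* was at 5.879 CPM in replicate 4 beside 8.999 to 9.57. In Del/Dup, *Adra2c* was at 24.71 CPM and *Htr6* at 3.762 CPM in replicate 3, beside 17.4 to 18.5 and 2.96 to 3.07, and *Chrna2* was at 3.804 CPM in replicate 2 beside 5.80 to 6.15.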

How the results depend on the processing

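Of 635 log2 fold changes of the named receptor genes recomputed under the alternatives, 617 kept their direction and side of the threshold, 11 passed the threshold newly (3 with DESeq2, 4 without 1 library and 4 in the low multi-mapped libraries, where Del/+ is 1 animal) and 7 changed sign. Of 314 counts of receptor genes, 286 stayed within 1.5 times and 28 did not. The count called was 2 with DESeq2 and 2 in the low multi-mapped libraries in Del/+, and 1 and 2 between Del/+ and Dup/+, and DESeq2 gave 1 for any difference. Leaving out 1 library, it ran from 0 to 1 in Del/+, in Del/Dup and for any difference, each time *Adra1d*, called without Del/+ replicate 3, Del/Dup replicate 2 or Del/Dup replicate 3 in the first and without Del/Dup replicate 3 in the others (-0.48 in Del/Dup, adjusted p = 0.0383, against -0.21 without Del/Dup replicate 2), and it was 0 in Dup/+ and between Del/+ and Dup/+. The count at an unadjusted p under 0.05 then ran from 7 to 10 in Del/+, 3 to 5 in Dup/+, 5 to 14 in Del/Dup (without Del/Dup replicates 2 and 3), 2 to 8 between Del/+ and Dup/+ (lowest without Del/+ replicate 2, and 3 without Dup/+ replicate 1 or 5) and 5 to 13 for any difference (without Del/Dup replicates 4 and 3). Shares over all genes are not given here for the fits without 1 library. Whether receptor genes moved apart from other genes there was not tested. With the thalamus covariate the count at an unadjusted p under 0.05 was 2 in Del/+, 2 between Del/+ and Dup/+ and 5 for any difference (4.41%, 5.40% and 9.70% of all genes), with the dentate gyrus covariate 4, 3 and 2 (9.48%, 8.57% and 10.4%), and 5 in Del/Dup (7.45%). With *Ttr* it was 4 in Del/Dup and 5 for any difference (6.75% and 11.1%), with the multi-mapped share 5 for any difference (12.7%), and in the low multi-mapped libraries 10 between Del/+ and Dup/+ (11.3%). Signs changed with the thalamus covariate in Del/+ against wt (*Adra1d* 0.0168, *Chrna4* -0.0403, *Htr2c* -0.298) and against Dup/+ (*Chrna4* -0.108, *Adra1d* 0.0689, *Hrh1* 0.0402), and in the low multi-mapped libraries for *Htr2c* (-0.0942, Del/+). The cause was not tested. The thalamus and dentate covariates and the subset of 12 libraries were chosen after seeing the data. Over all genes DESeq2 called 625, 76, 182, 266 and 695 in the 5 comparisons where edgeR called 99, 36, 8, 114 and 116, and the lowest edgeR counts, leaving out no library, were 22 and 27 with the thalamus covariate in Del/+ against wt and Dup/+, 12 with wt replicate 5 as Dup/+ in Dup/+, 5 with several settings in Del/Dup and 53 with the thalamus covariate for any difference. Replicate numbers did not pair the animals (correlations of same-numbered libraries from -0.254 to 0.152), and with a replicate block 2 in place of 4 receptor genes had an unadjusted p under 0.05 in Dup/+, with 0 called in every comparison. The share over all genes under this block is not given here. The 9 tested genes with under 10 reads in some library had 95% intervals that reached beyond 1.5-fold in each comparison.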
